A study of Mus musculus with 22 samples.

Results

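mmu-miR-99b-5p and mmu-miR-125a-5p (miR-99b-5p and miR-125a-5p below) are mature miRNAs cut from hairpins of 1 cluster on mouse chromosome 17, and both were followed here in the arcuate nucleus (ARC) and the paraventricular nucleus (PVH) of the hypothalamus. The members were taken by name, as 2 of the 172 miRNAs listed in each nucleus, and let-7e-5p, the remaining 5p product of the cluster, was read beside them as a reference. The mice were wild type C57BL/6J males of 8 weeks that ate chow and were killed in the fed state, so genotype, sex, age and own diet were shared by all groups. Off-Ob mice were the offspring of obese dams on a high-fat diet with condensed milk, and Off-C mice those of lean dams on chow. The diets ran from before mating to the end of lactation, and both kinds of dam were in a second pregnancy. Obesity and diet of the dams cannot be told apart here. There were 5 Off-Ob and 6 Off-C libraries of each nucleus, 22 libraries from 12 mice, of which 4 Off-Ob and 6 Off-C mice gave both nuclei. The study's methods take 1 male per litter, tissue was laser-captured from frozen sections, and all libraries of a nucleus came from 1 sequencing pool, so that nucleus and pool cannot be told apart.

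miRNA hairpins that lie close together on 1 strand are often cut from a shared primary transcript, while the amounts of the mature products also depend on the cutting, loading and decay of each miRNA. The miR-99 family is known for lowering parts of the insulin-like growth factor and mTOR pathway, and the miR-125 family, the mammalian relatives of worm lin-4, for lowering Lin28, whose protein in turn blocks the maturation of let-7. The same arrangement of a miR-99 or miR-100, a let-7 and a miR-125 hairpin recurs at other loci of the mouse genome.

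The mature sequences are shown because the seed, the stretch in capitals from base 2 to base 8, is what a miRNA mainly pairs with a target, and because near-identical relatives could share reads. They are RefSeq entries on GRCm38.p6, written 5′ to 3′.
miR-99b-5p: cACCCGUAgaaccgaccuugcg
miR-125a-5p: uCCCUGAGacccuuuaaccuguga
let-7e-5p: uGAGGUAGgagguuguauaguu
miR-99a-5p: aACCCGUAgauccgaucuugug
miR-125b-5p: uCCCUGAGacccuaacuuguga
let-7a-5p: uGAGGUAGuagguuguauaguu
The 3 products of the cluster carry 3 different seeds. Among the 148 listed miRNAs with a RefSeq sequence, miR-99b-5p was the only one with its seed, since neither miR-99a-5p nor miR-100-5p was listed. Counted from the 5′ end, miR-99b-5p differs from miR-99a-5p by C1A, A11U, C16U and C21U. miR-125a-5p shares its seed with miR-125b-5p, which was listed, and the first 13 bases are identical. let-7e-5p differs from let-7a-5p by G9U alone and shares its seed with 9 other listed miRNAs, which is why it served only as a reference. One of these, let-7k, has 19 bases, of which the first 16 are those of let-7e-5p. How reads that match several miRNAs were counted is not given in the sources used here.

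The hairpins lie on the plus strand of chromosome 17 in GRCm38, inside the gene Spaca6 (17827158 to 17843009). Mir99b runs from 17830188 to 17830257, Mirlet7e from 17830352 to 17830444 and Mir125a from 17830812 to 17830879, so the cluster spans 692 bases. Between Mir99b and Mirlet7e there are 94 bases, and between Mirlet7e and Mir125a 367 bases. Of 16 annotated Spaca6 transcripts, none had an exon over Mir99b or Mirlet7e and 1 had an exon over Mir125a. Only 2 of the 16 spanned Mir99b, 2 Mirlet7e and 3 Mir125a. The Mir125a hairpin is printed with both mature arms in capitals, since both were listed.
Mir125a: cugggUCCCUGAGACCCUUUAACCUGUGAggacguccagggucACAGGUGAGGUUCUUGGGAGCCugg
The 5p arm, first in the hairpin, had 157 to 5104 reads per library and the 3p arm, miR-125a-3p, had 1 to 9. The 3p arms of the other hairpins, miR-99b-3p and let-7e-3p, were not listed.

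**Figure D1:**
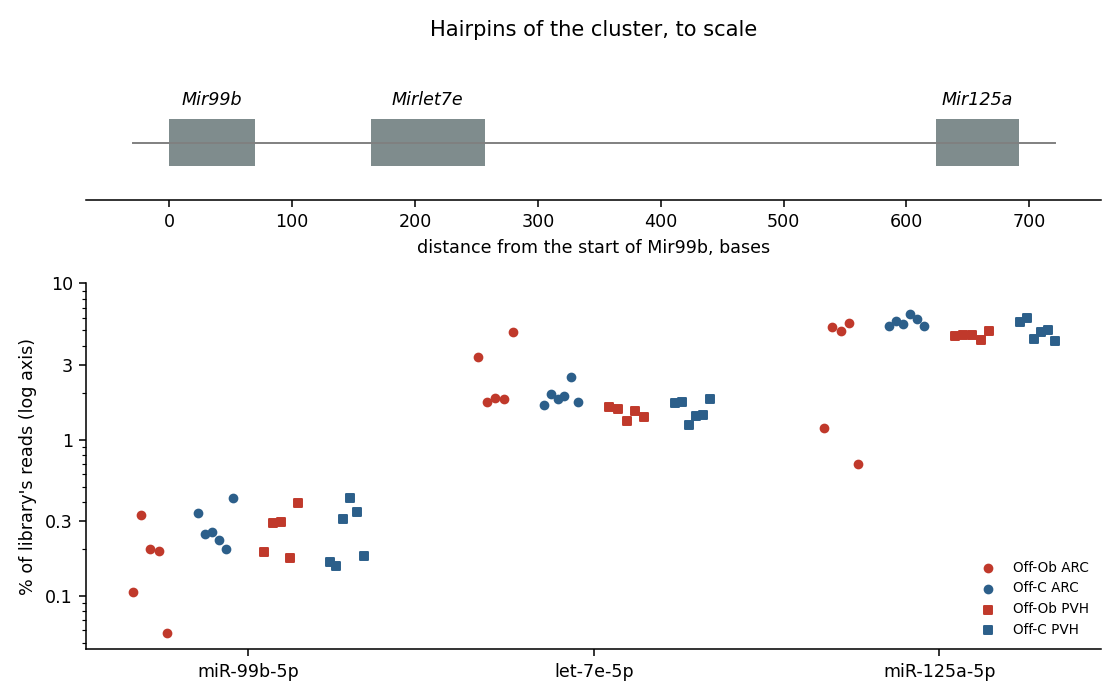
The upper panel draws the hairpins to scale, as distance in bases from the start of Mir99b. The lower panel gives each miRNA as a percent of its library's reads on a log axis, 1 point per library, with circles for ARC and squares for PVH, and shows miR-125a-5p above let-7e-5p above miR-99b-5p in all libraries but the 2 Off-Ob ARC libraries with 0.692% and 1.19% of miR-125a-5p.

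The values below are given as deposited levels, log2(CPM + 1), where CPM are reads brought to a common library total with a scale factor for each library, and as a percent of the library's reads. Whole reads could be recovered from all 3784 values. Depth ran between 22680 and 91790 reads in the ARC and between 22495 and 61476 in the PVH. Of the 6 markers of brain tissue and neurons searched, all were listed, although miR-124-3p, the defining miRNA of neurons, had only 3 to 12 reads in the ARC and 3 to 35 in the PVH. Of the 6 neuroendocrine markers searched only 1 was listed, miR-7a-5p, a miRNA known for its high level in the hypothalamus. It made up 6.65 to 23.4% of the reads in the ARC and 11.1 to 17.8% in the PVH. The ARC libraries of the Off-Ob mice F42A and F6A stood apart: 79.1% and 64.2% of what was sequenced there was let-7, as compared with 33.8 to 46.8% in the Off-C ARC libraries and 30.5 to 42.6% over all PVH libraries. F42A was also the shallowest ARC library, at 22680 reads, with 20 miRNAs at 0 reads (0 to 1 in Off-C ARC) and a scale factor of 0.470 (1.03 to 1.21). The median Pearson r with the other ARC libraries was 0.671 for F42A and 0.842 for F6A, against 0.933 to 0.958 for Off-C ARC libraries. The part of library quality in the ARC differences was not tested. The summed share of the brain and neuron markers was 0.212 to 2.42% in Off-Ob ARC and 1.59 to 2.50% in Off-C ARC libraries, with F42A at the low end, and it was higher in the PVH, at 3.20 to 4.36% in Off-Ob and 2.55 to 4.28% in Off-C libraries. The endothelial markers miR-126-3p and miR-126-5p summed to 0.384 to 0.999% in Off-Ob ARC and 0.665 to 2.18% in Off-C ARC libraries, and to 1.51 to 2.11% in Off-Ob PVH and 1.51 to 3.03% in Off-C PVH libraries. The part of either marker sum in the differences between nuclei was not tested. Markers of endothelium (2 of 2) and oligodendrocytes (2 of 2) were listed and those of microglia, red blood cells and ependyma were not. In such tissue samples fewer cells of a type and less RNA per cell cannot be told apart, and the main results below that rest on F42A and F6A are also given without them.

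miR-125a-5p was the 6th most abundant of the 172 miRNAs and miR-99b-5p the 45th, with let-7e-5p 12th by mean read share. Over the 22 libraries miR-125a-5p averaged 4.79% of the reads, let-7e-5p 1.91% and miR-99b-5p 0.249%. The products of neighbouring hairpins therefore differed widely in read share, with the last hairpin of the cluster giving the most reads and the first the fewest. These shares compare reads, and the ligation and amplification efficiency of each sequence was not measured.

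In the ARC, miR-125a-5p made up 1.19% of the reads in F6A, 5.24% in F12A, 4.98% in F13A, 5.56% in F41A and 0.692% in F42A among Off-Ob mice. In Off-C ARC libraries its lowest, median and highest shares were 5.32%, 5.60% and 6.40%. F41A thus lay inside the Off-C range and F12A and F13A just under it, while F6A and F42A lay far under every other library. The deposited level averaged 14.86 ± 0.98 in Off-Ob ARC (SD, n = 5) and 15.63 ± 0.18 in Off-C ARC (n = 6). The log2 difference was -0.77 (95% interval -1.59 to 0.05) and did not pass the test (adjusted p = 0.49 in limma over 172 miRNAs; exact permutation p = 0.067, two-sided). Without F42A and F6A it was -0.054 (limma, adjusted p = 0.99), so the difference rested on those 2 libraries.

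miR-99b-5p made up 0.106% of the ARC reads in F6A, 0.327% in F12A, 0.199% in F13A, 0.194% in F41A and 0.0573% in F42A of the Off-Ob group. Its lowest, median and highest shares in Off-C ARC libraries were 0.198%, 0.252% and 0.420%. F6A and F42A were again the lowest, F41A lay just under the Off-C range, and F12A and F13A inside it. The F42A value rests on 13 reads, which gives a 95% Wilson interval of 0.0335 to 0.0981%. The deposited level averaged 10.75 ± 0.52 in Off-Ob ARC (n = 5) and 11.25 ± 0.31 in Off-C ARC (n = 6). The log2 difference was -0.50 (95% interval -1.06 to 0.07; limma, adjusted p = 0.49; exact permutation p = 0.087), and -0.17 without F42A and F6A (limma, adjusted p = 0.99).

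On the deposited scale limma called 0 of the 172 miRNAs in the ARC (0%) at an adjusted p of 0.05. Of the 172, 10 (5.81%) reached an unadjusted 0.05 in limma on that scale, neither member among them. limma-voom on the recovered reads likewise called 0 after adjustment and 8 before it. On shares of reads outside let-7 the members differed by -0.41 for miR-99b-5p and -0.68 for miR-125a-5p (limma, adjusted p = 0.54 for both). In limma on those shares and on plain read shares, miR-125a-5p reached the unadjusted threshold and miR-99b-5p did not. The median log2 difference of all 172 miRNAs in the ARC was -0.16 on the deposited scale and -0.52 on plain read shares, and on plain shares the members differed by -0.86 for miR-99b-5p and -1.13 for miR-125a-5p (limma, adjusted p = 0.39 for both), which without F42A and F6A were -0.23 and -0.11 (limma, adjusted p = 0.99 for both). let-7e-5p, from the hairpin between the members, differed the other way, averaging 14.80 ± 1.17 in Off-Ob ARC and 14.07 ± 0.30 in Off-C ARC, with a log2 difference of 0.73 (limma, adjusted p = 0.49) that was -0.038 without F42A and F6A.

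**Figure D2:**
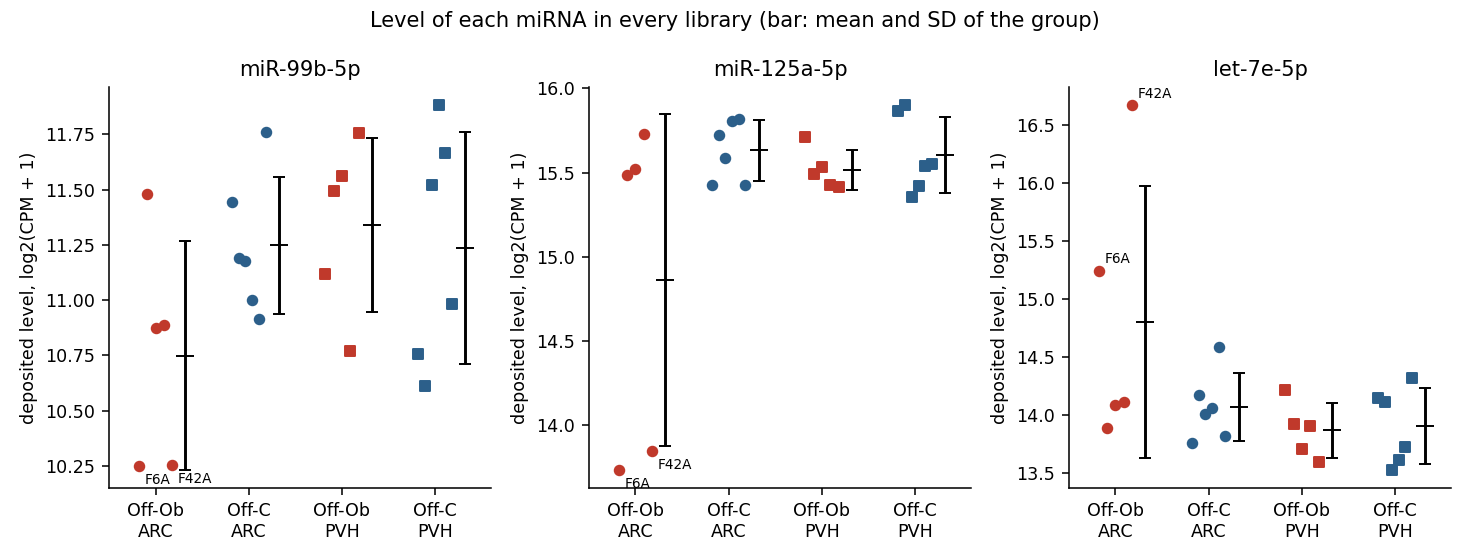
Each panel shows the deposited level, log2(CPM + 1), of 1 miRNA in every library of the 4 groups, with the mean and SD of each group as a black bar. The ARC libraries F6A and F42A lie lowest for miR-99b-5p and miR-125a-5p and highest for let-7e-5p, and the other libraries of the groups overlap.

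The PVH showed no such libraries. miR-125a-5p made up 4.61% of the reads in F12A, 4.70% in F13A, 4.70% in F14A, 4.36% in F41A and 4.95% in F42A of the Off-Ob mice, and 4.29%, 4.98% and 6.01% were its lowest, median and highest shares in Off-C PVH libraries. All 5 Off-Ob values lay inside the Off-C range, the PVH library of F42A included. The levels averaged 15.52 ± 0.12 in Off-Ob PVH and 15.60 ± 0.23 in Off-C PVH, a log2 difference of -0.087 (95% interval -0.39 to 0.22; limma, adjusted p = 0.98; exact permutation p = 0.45).

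In the PVH miR-99b-5p made up 0.190% of the reads in F12A, 0.294% in F13A, 0.298% in F14A, 0.173% in F41A and 0.391% in F42A of the Off-Ob mice. The lowest, median and highest Off-C PVH shares were 0.154%, 0.244% and 0.422%, again with every Off-Ob value inside the range. The log2 difference was 0.10 (95% interval -0.45 to 0.65; limma, adjusted p = 0.98; exact permutation p = 0.71), from levels of 11.34 ± 0.39 in Off-Ob PVH and 11.24 ± 0.52 in Off-C PVH. In the PVH limma called 0 of 172 miRNAs (0%) at either the adjusted or the unadjusted threshold, as did limma-voom. Of the relatives searched, 4 of 9 were listed (miR-125a-3p, miR-125b-5p, let-7c-5p and let-7a-5p), and 0 of these 4 passed the adjusted threshold in the ARC or the PVH.

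Whether the maternal effect differed between nuclei was tested as an interaction over all 22 libraries, with the mouse as a block. The Off-Ob minus Off-C difference gave an ARC minus PVH value of -0.70 for miR-125a-5p (95% interval -1.58 to 0.18) and of -0.61 for miR-99b-5p (95% interval -1.42 to 0.19). Neither passed (limma, adjusted p = 0.67 for both), as was true of all 172 miRNAs (0%), of which 5 (2.91%) reached an unadjusted 0.05. Permuting the maternal labels over ARC minus PVH of the 10 mice with both libraries gave a difference of -0.40 for miR-125a-5p (exact p = 0.35) and of -0.42 for miR-99b-5p (exact p = 0.42), both smaller in size than in the fit over all libraries. Without mice F42A and F6A the interaction was 0.0079 for miR-125a-5p and -0.18 for miR-99b-5p.

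From low to high mean read share, the groups stood for miR-125a-5p as Off-Ob ARC (3.53 ± 2.38%), Off-Ob PVH (4.66 ± 0.21%), Off-C PVH (5.05 ± 0.68%) and Off-C ARC (5.70 ± 0.42%), and Off-Ob ARC averaged 5.26 ± 0.29% without F42A and F6A. For miR-99b-5p, again from low to high, they stood as Off-Ob ARC (0.176 ± 0.10%), Off-C PVH (0.262 ± 0.11%), Off-Ob PVH (0.269 ± 0.089%) and Off-C ARC (0.281 ± 0.082%), and Off-Ob ARC averaged 0.240 ± 0.075% without F42A and F6A. Neighbours in either order overlapped within 1 SD of each mean.

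Between the nuclei neither member differed past the threshold. On read shares, which put both nuclei on 1 scale, the log2 value of ARC minus PVH averaged over both groups was -0.34 for miR-125a-5p (95% interval -0.94 to 0.26; limma, adjusted p = 0.39) and -0.31 for miR-99b-5p (95% interval -0.88 to 0.25; limma, adjusted p = 0.40), where 21.5% of the 172 miRNAs passed, 34 of them lower and 3 higher in the ARC. With median-ratio factors the split of called miRNAs was 17 lower and 15 higher, and the member differences were 0.061 for miR-125a-5p and 0.088 for miR-99b-5p. Leaving out F42A and F6A also turned both directions, to 0.19 for miR-125a-5p and 0.078 for miR-99b-5p (limma, adjusted p = 0.13 and 0.85). The median over all miRNAs was -0.38 on read shares, close to the values of both members, and 0.016 with median-ratio factors. Within Off-Ob mice the ARC minus PVH value was -0.87 for miR-125a-5p and -0.80 for miR-99b-5p (limma, adjusted p = 0.12 and 0.13), where 20.9% of all miRNAs passed. Without F42A and F6A these were 0.19 for miR-125a-5p and -0.011 for miR-99b-5p (limma, adjusted p = 0.48 and 0.98). Without F12A the miR-99b-5p value was -1.17 and passed (limma, adjusted p = 0.034). In that setting 62 of the 172 miRNAs were called lower and 6 higher in the ARC, with a median of -0.93. Without F42A alone the miR-99b-5p value was -0.34 and the median over all miRNAs -0.40. Within Off-C mice the values were 0.18 and 0.17 (limma, adjusted p = 0.98 for both), where 4.07% passed. let-7e-5p was higher in the ARC by 0.54 on this scale (limma, adjusted p = 0.023), in 8 of 10 mice, and by 0.29 without F42A and F6A (limma, adjusted p = 0.067).

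Mouse by mouse, miR-125a-5p had the larger read share in the ARC in 7 of 10 mice, 3 of 4 Off-Ob and 4 of 6 Off-C, and miR-99b-5p in 5 of 10 mice, 2 of 4 Off-Ob and 3 of 6 Off-C. The log2 differences of miR-125a-5p lay between -0.086 and 0.38 in 9 mice and at -2.84 in F42A. Those of miR-99b-5p ran from -0.89 to 1.22 in 9 mice and stood at -2.77 in F42A. Outside that mouse, then, the range over animals was wider for miR-99b-5p than for miR-125a-5p, although in F41A (0.35 against 0.17) and RC9A (0.32 against -0.26) the miR-125a-5p difference was the larger in size.

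The ratio of the partners cancels the library total and the scale factor, and it was counted as reads of miR-125a-5p for each read of miR-99b-5p. In the ARC it was 11.2 in F6A, 16.03 in F12A, 25.1 in F13A, 28.7 in F41A and 12.1 in F42A of the Off-Ob mice, and 12.7, 22.2 and 29.95 were the lowest, median and highest values in Off-C mice. The ARC libraries that stood apart by level thus had ratios just under the lowest Off-C one, and both members had low shares of all reads there. The 95% counting intervals of these ratios were 8.41 to 14.97 in F6A and 6.91 to 21.1 in F42A. Of the reads outside let-7, miR-99b-5p made up 0.296% in F6A and 0.274% in F42A. Its lowest shares were 0.311% in the other Off-Ob ARC, 0.370% in Off-C ARC and 0.268% in Off-C PVH libraries. For miR-125a-5p these shares were 3.32% in F6A and 3.31% in F42A, against lowest shares of 7.80%, 8.03% and 6.68%. Outside let-7 the distance from the other libraries was thus larger for miR-125a-5p. In the PVH the ratio was 24.2 in F12A, 15.99 in F13A, 15.7 in F14A, 25.2 in F41A and 12.7 in F42A of the Off-Ob mice, and its lowest, median and highest values were 11.6, 19.2 and 39.1 in Off-C mice.

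The ratio did not separate the maternal groups or the nuclei. On the log2 scale, as miR-99b-5p over miR-125a-5p, Off-Ob minus Off-C was 0.28 in the ARC (exact permutation p = 0.40), which turned to -0.11 without F42A and F6A (exact permutation p = 0.68), and 0.19 in the PVH (exact permutation p = 0.61), and ARC minus PVH averaged -0.024 over 10 mice (exact sign-flip permutation p = 0.93, higher in the ARC in 5 of 10). Adjusted over the 16 ratio tests, the values of these 3 were 0.67, 0.81 and 0.99. The smallest p that these designs allow is 0.0022 within a nucleus and 0.0020 over the 10 mice.

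**Figure D3:**
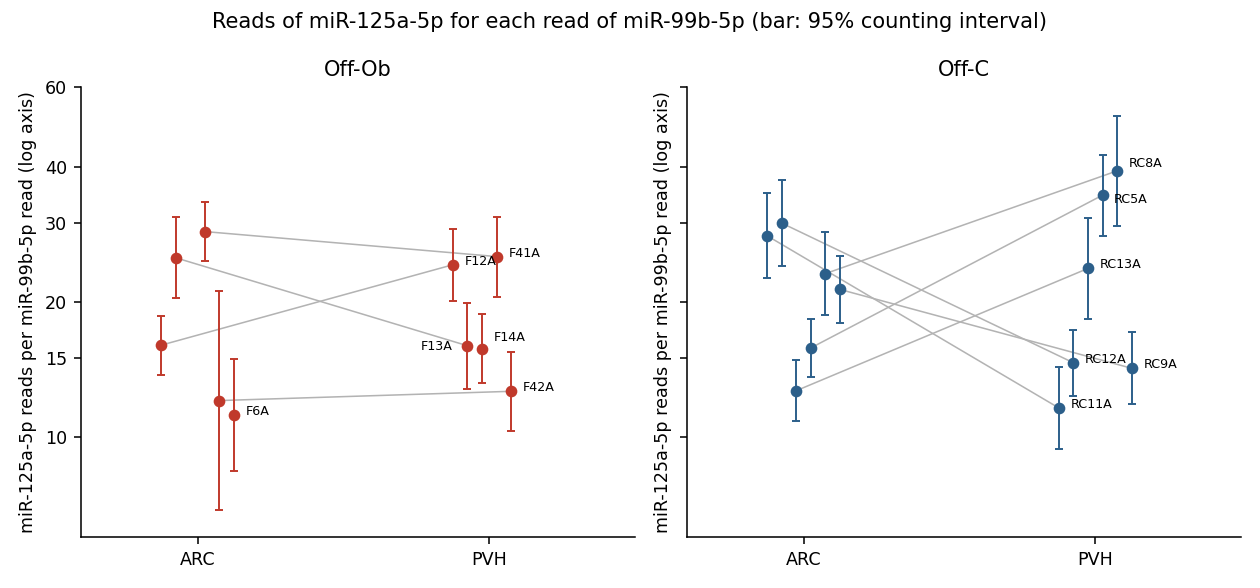
Reads of miR-125a-5p for each read of miR-99b-5p are plotted on a log axis for every library, Off-Ob mice in the left panel and Off-C mice in the right, with grey lines joining the ARC and PVH libraries of 1 mouse and bars for the 95% counting interval. The lines cross, and in 8 of 10 mice the ARC and PVH intervals lie apart, with more miR-125a-5p per miR-99b-5p in the ARC in 4 of these mice and in the PVH in 4.

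The ratio nevertheless varied between libraries by more than counting error. Its log2 SD was 0.44 over the 9 ARC libraries without F42A and F6A and 0.59 over the 11 PVH libraries, against 0.14 and 0.16 from counting alone. Nor did it follow the animal: RC8A had 23.1 (95% counting interval 18.7 to 28.6) in the ARC and 39.1 (29.6 to 51.7) in the PVH, whereas RC11A had 28.1 (22.6 to 34.9) in the ARC and 11.6 (9.44 to 14.3) in the PVH. In 8 of the 10 mice the intervals of the nuclei lay apart, 4 in each direction.

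The ratio of miR-125a-5p to let-7e-5p was the widest over all 11 ARC libraries and the tightest once F42A and F6A were left out. It stood at 0.353 and 0.142 in the Off-Ob ARC libraries F6A and F42A and at 2.71 to 3.07 in the other 3 of that group, against 2.35 to 3.37 in Off-C ARC libraries, and it was 2.83 to 3.56 in Off-Ob PVH and 2.35 to 3.55 in Off-C PVH libraries. Without F42A and F6A its log2 SD was 0.15 in the ARC, and it was 0.19 over all PVH libraries, where counting error accounts for 0.056 and 0.071. The spread of miR-99b-5p against let-7e-5p was 0.51 in those 9 ARC libraries and 0.69 in the PVH. Among the 3 products, both ratios with miR-99b-5p were thus wider than that of miR-125a-5p to let-7e-5p in the PVH and in those 9 ARC libraries. Over all 11 ARC libraries the order turned, with SDs of 1.54 for miR-125a-5p to let-7e-5p, 1.26 for miR-99b-5p to let-7e-5p and 0.54 for miR-99b-5p to miR-125a-5p.

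**Figure D4:**
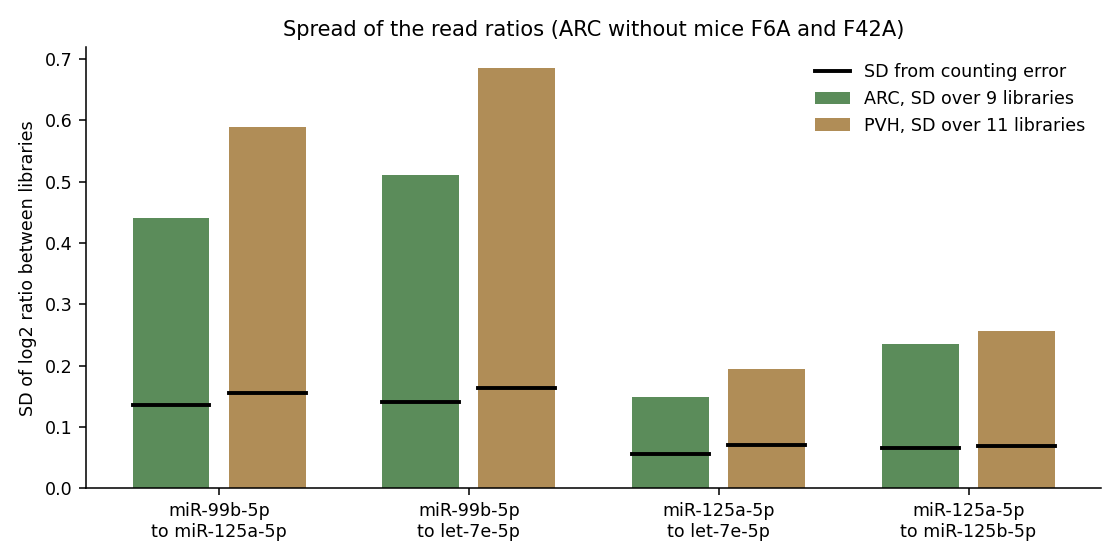
Bars give the SD between libraries of 4 log2 read ratios, for 9 ARC libraries (without F6A and F42A) and 11 PVH libraries, and black lines give the SD that counting error alone would leave. Ratios with miR-99b-5p have SDs of 0.44 to 0.69, and the ratio of miR-125a-5p to let-7e-5p has SDs of 0.15 and 0.19.

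Ratios to let-7e-5p did not pass between the maternal groups. In the ARC the log2 difference was -1.50 for miR-125a-5p over let-7e-5p (exact permutation p = 0.078, adjusted 0.42) and -1.22 for miR-99b-5p over let-7e-5p (exact permutation p = 0.11, adjusted 0.46), and without F42A and F6A these were -0.015 and -0.13. In the PVH they were -0.047 and 0.14 (exact permutation p = 0.75 for both).

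miR-125b-5p, the other listed miRNA with the miR-125 seed, allowed a comparison within the family. miR-125a-5p had 2.85 to 4.202 reads for each miR-125b-5p read in Off-Ob ARC and 3.67 to 5.93 in Off-C ARC libraries, and 2.32 to 3.69 in Off-Ob PVH and 2.48 to 3.78 in Off-C PVH libraries. The log2 ratio was lower in Off-Ob than in Off-C ARC by a difference of -0.35 (exact permutation p = 0.032), which did not pass over the 16 tests (adjusted p = 0.26) and was -0.21 without F42A and F6A. It was higher in the ARC than in the PVH by 0.38 on average, in 8 of 10 mice (exact sign-flip permutation p = 0.0078), and this missed the adjusted threshold as well (adjusted p = 0.13). As a level, miR-125b-5p had an ARC minus PVH value of -0.68 in log2 read share over both groups and did not pass (limma, adjusted p = 0.067). Of the 4 listed relatives 0 passed between nuclei over both groups, within Off-Ob or within Off-C mice, where 21.5%, 20.9% and 4.07% of all miRNAs passed. Other settings are given with the miRNAs called among all 172, higher and lower in the ARC. On the deposited scale 1 relative passed over both groups (3 higher, 56 lower) and 1 within Off-Ob mice (3 higher, 40 lower). With no mouse block 1 passed within Off-Ob mice (4 higher, 38 lower). Over both groups 1 passed without F12A (3 higher, 51 lower) and 1 without F41A (4 higher, 42 lower). Within Off-Ob mice 2 passed without F12A (6 higher, 62 lower) and 1 without F41A (3 higher, 37 lower).

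Across libraries that did not stand apart, high miR-99b-5p went with low miR-125a-5p on the deposited scale. Over the 11 PVH libraries the deposited levels of miR-99b-5p and miR-125a-5p had a Pearson r of -0.70 (permutation p = 0.017) and a Spearman rho of -0.68 (permutation p = 0.026), and the adjusted p-values over 12 relations were 0.032 and 0.062. Leaving out RC5A and RC8A, the 2 libraries farthest from the median miR-99b-5p level, left r at -0.33 (permutation p = 0.38), which did not pass. That step also narrows the range of miR-99b-5p, so it cannot show whether the relation rested on those libraries alone. In the ARC the libraries fell into 2 clusters, so no pooled coefficient is given here. Over the 9 libraries without F42A and F6A r was -0.73 (permutation p = 0.029) with an adjusted p of 0.049, and rho was -0.67 (permutation p = 0.058), with 0.078 after adjustment. On plain read shares the same 9 libraries gave r of -0.32 (permutation p = 0.40) and outside let-7 -0.38 (permutation p = 0.31), and neither passed.

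Within the Off-C mice alone r was -0.91 in the ARC (exact permutation p = 0.0069, adjusted 0.031) and -0.87 in the PVH (exact permutation p = 0.031, adjusted 0.041), with rho of -0.94 and -0.83 (exact permutation p = 0.017 and 0.058). Without the 2 farthest libraries, which leaves 4, r was -0.93 and -0.77 (exact permutation p = 0.083 and 0.21). With 4 libraries there are 24 arrangements, too few for a pass after adjustment to be likely. These coefficients depended on the scale: on plain read shares r was -0.76 in Off-C ARC (exact permutation p = 0.088), -0.43 in Off-C PVH (exact permutation p = 0.37) and -0.20 over all PVH libraries (permutation p = 0.55), and none passed. All values of a library share its total and scale factor. In the 9 ARC libraries without F42A and F6A the log2 scale factor had r of 0.88 with deposited miR-99b-5p and -0.76 with deposited miR-125a-5p. On plain read shares these were 0.93 and -0.26. Over the 11 PVH libraries they were 0.68 and -0.56 on the deposited scale, and 0.80 and 0.14 on plain read shares. The part of the total and the scale factor in the relation was not tested.

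**Figure D5:**
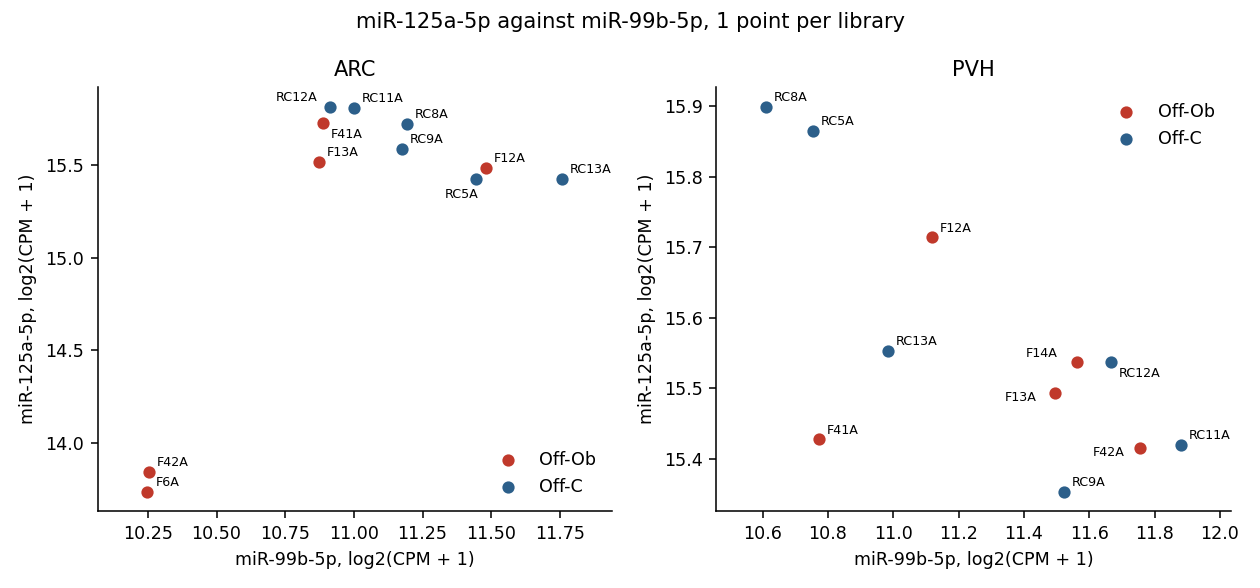
Deposited levels, log2(CPM + 1), of miR-125a-5p are plotted against those of miR-99b-5p with 1 named point per library, ARC on the left and PVH on the right. The ARC libraries F42A and F6A form a cluster low in both miRNAs, and the remaining 9 ARC libraries and the 11 PVH libraries slope downward, with r of -0.73 and -0.70.

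On the deposited scale miR-99b-5p also ran opposite to let-7e-5p, and miR-125a-5p alongside it, outside the libraries that stood apart. In the PVH r was -0.78 for miR-99b-5p and let-7e-5p (permutation p = 0.0077, rho -0.72 with permutation p = 0.017) and 0.71 for miR-125a-5p and let-7e-5p (permutation p = 0.015, rho 0.84 with permutation p = 0.0022), adjusted p = 0.031 and 0.032 for r. Without RC5A and RC8A these were -0.75 and 0.74 (permutation p = 0.022 and 0.020), which missed the adjusted threshold. Over the 9 ARC libraries without F42A and F6A they were -0.71 and 0.80 (permutation p = 0.029 and 0.0019), and on plain read shares -0.56 and 0.52 (permutation p = 0.10 and 0.16), which did not pass. On plain read shares the PVH value for miR-99b-5p stayed at -0.76 (permutation p = 0.0096, adjusted 0.029), and that for miR-125a-5p was 0.32 (permutation p = 0.35). The PVH libraries with the least miR-99b-5p, RC8A, RC5A, F41A and RC13A, had 42.6%, 40.9%, 38.7% and 41.8% of their reads in the let-7 family, and those with the most, RC11A and F42A, had 30.5% and 31.7%. let-7 and miR-99b-5p are shares of 1 total, and the part of the let-7 share in these relations was not tested.

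The miRNAs whose levels were most like each member were ranked by the mean Fisher z of Pearson r within the ARC and the PVH, among the 110 miRNAs with at least 20 reads on average. For miR-99b-5p these were miR-380-3p (r of 0.95 among ARC and 0.86 among PVH libraries), miR-29c-3p (0.90 and 0.90), miR-19b-3p (0.87 and 0.91), miR-410-3p (0.95 and 0.73) and miR-136-5p (0.87 and 0.89). For miR-125a-5p they were miR-135a-5p (0.96 and 0.83), miR-153-3p (0.97 and 0.80), miR-132-3p (0.98 and 0.68), miR-667-3p (0.97 and 0.66) and miR-467b-5p (0.94 and 0.75). The cluster partner ranked 61st of 109 for miR-99b-5p and 50th for miR-125a-5p, so neither list held the other member. let-7e-5p ranked 101st for miR-99b-5p and 70th for miR-125a-5p, and without F42A and F6A 94th and 11th. On plain CPM over all libraries its ranks were 105 and 107. Without F42A and F6A, 2 of the 5 miRNAs named for miR-99b-5p stayed among its closest 5 and 0 of those named for miR-125a-5p, whose list was then let-7f-5p, let-7k, let-7c-5p, miR-211-5p and miR-126-5p, and the partner ranked 89th and 91st. The ARC coefficients of the full lists span the libraries that stood apart, and these ranks describe 22 libraries and carry no test.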

How the data were processed

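Small RNA of laser-captured ARC and PVH tissue was sequenced from TruSeq Small RNA libraries. The authors mapped reads with Bowtie 1.2.3 to GRCm38 and deposited log2 values, log2(CPM + 1), with a scale factor per library set within each nucleus; their test was in edgeR 3.36.0. How the 172 miRNAs were annotated and filtered is not given in the sources used here. Columns were tied to groups and, through the authors' identifier sheet, to mice. Reads were recovered with the deposited totals and factors (all 3784 values within 0.01 of a whole read). A count of 0 allows 3 reads, 0.0133% in the shallowest library. Intervals cover counting error only, since PCR reads are not independent molecules.

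Maternal groups were compared per nucleus by limma 3.58.1 (R 4.3.3) with trend on the log2 values, and nuclei on log2(CPM + 1) of plain shares, both with Benjamini-Hochberg adjustment. A CPM of 1 in at least 5 libraries kept all 172. The mouse, from the identifier sheet, was the block between nuclei (consensus correlation -0.13 on shares, -0.088 on log2 values). Ratios used reads + 0.5 and two-sided exact permutations, and correlations 100000 permutations or all of them at 6 libraries. Named miRNAs were the members, let-7e-5p, listed arms, family and paralogous-cluster miRNAs, and the 5 most alike. Members and lists were chosen with earlier results of these data known. The limma step was tested on simulated reads. Alternatives were other pseudocounts, filters, scalings (plain CPM, median-ratio factors, shares of reads outside let-7) and models, no block, and libraries left out. Scale and library alternatives combined, and likeness without F42A and F6A, were chosen after seeing the data. Hairpin positions came from GENCODE mouse release 21, and the other steps ran in Python 3.11.15 (SciPy 1.17.1, NumPy 2.4.6; figures with matplotlib 3.10.9).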

Additional observations from a re-analysis of the deposited data

Results flagged for a closer look

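In 28 groups of 5 or 6 libraries tested for a library far from the others, over the levels of the 3 cluster products and the 4 ratios, 1 was found, and chance gives about 1 in 20. The log2 ratio of miR-125a-5p to let-7e-5p was 1.23 in the Off-C PVH library of RC13A, against 1.72 in the next lowest Off-C PVH library. That library had 1401 reads of miR-125a-5p and 596 of let-7e-5p. The ARC libraries F42A and F6A were not found this way. The test sets the gap from the end library to the next against the range. These 2 of 5 libraries lay next to each other at the same end, low for the members and high for let-7e-5p.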

How the results depend on the processing

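Of 228 alternative values of the single miRNA tests of both members, 218 kept direction and call, 9 changed direction and 1 gained a call. Not all of these were checks. Dropping the filter, which had kept every listed miRNA, and recomputing trimmed-mean factors repeated the main values between maternal groups. There limma without trend or with robust variances keeps the difference itself, so only its call could change. Of 216 alternative values for the ratios, 197 kept both and 19 changed direction. Of 42 for the correlations 14 kept both, 22 lost their call and 6 changed direction. The Off-C settings cut to 4 libraries have 24 arrangements, so a call could hardly be kept there. For miR-125a-5p and let-7e-5p in the ARC, leaving out the 2 farthest libraries and leaving out F42A and F6A are the same step, counted separately. The causes of the changes were not tested unless stated.

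No paired analysis was possible within a nucleus because the maternal groups were different mice. With no replicate block the interaction was -0.60 for miR-99b-5p and -0.68 for miR-125a-5p, and ARC minus PVH was -0.31 and -0.33, with no member call changed.

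Without mice F42A and F6A, let-7e-5p was -0.038 between maternal groups in the ARC (-0.098 on plain CPM), and the interactions were 0.0079 for miR-125a-5p and -0.058 for let-7e-5p. ARC minus PVH was then 0.078 for miR-99b-5p and 0.19 for miR-125a-5p over both groups and 0.19 for miR-125a-5p in Off-Ob mice. Log2 ratios were then -0.11 for miR-99b-5p to miR-125a-5p in the ARC, -0.031 for miR-99b-5p to let-7e-5p in the PVH, and 0.085 and 0.15 for miR-99b-5p and miR-125a-5p to let-7e-5p in the difference between nuclei. With a pseudocount of 5 reads the difference between nuclei of the partners' ratio was 0.069. Median-ratio factors gave ARC minus PVH of 0.088 for miR-99b-5p and 0.061 for miR-125a-5p.

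miRNAs called for ARC minus PVH over both groups, 37, were 59 on the deposited log2 values. In Off-Ob mice they were 36, against 21 outside let-7, 13 with median-ratio factors and 4 without F42A and F6A. In Off-C mice they were 7, against 13 on the deposited log2 values and 19 without those mice.

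The partners' r in the PVH was -0.20 on plain CPM, -0.60 outside let-7, -0.33 without the 2 farthest libraries, -0.67 without F42A and F6A, and -0.25 and -0.61 without those mice on plain CPM and outside let-7. In Off-C ARC it was -0.76, -0.78 and -0.93 on plain CPM, outside let-7 and without the 2 farthest, and in Off-C PVH -0.43, -0.78 and -0.77. Over all 11 ARC libraries it was 0.71 and rested on F42A and F6A. It was 0.49 outside let-7 and 0.67 without the 2 farthest, here RC13A and F6A, which keeps F42A. Without F42A and F6A it was -0.73, and -0.32 and -0.38 on plain CPM and outside let-7. In the ARC miR-125a-5p and let-7e-5p reached 0.80 without the 2 farthest libraries, which for this pair were F6A and F42A, and 0.52 without them on plain CPM.

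Leaving out 1 library, the PVH difference was -0.021 to 0.25 for miR-99b-5p, -0.13 to 0.043 for let-7e-5p and -0.031 to 0.33 for the ratio of these 2. Leaving out 1 mouse, ARC minus PVH of miR-99b-5p lay between -1.17 and -0.34 for Off-Ob mice, with a call gained without F12A, and between -0.044 and 0.38 for Off-C mice. miRNAs called then numbered 20 (without RC12A) to 54 (without F12A) over both groups, 6 (without F42A) to 68 (without F12A) in Off-Ob and 0 (without RC8A) to 9 in Off-C mice. The ratio of miR-99b-5p to miR-125a-5p was -0.15 to 0.11 between nuclei, and the differences between nuclei were -0.27 to 0.21 for that ratio, -1.65 to 0.085 for miR-99b-5p to let-7e-5p and -1.43 to 0.15 for miR-125a-5p to let-7e-5p.

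Of both members, miR-99b-5p had the fewer reads, 13 to 185 per library.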
